A study of Mus musculus with 8 samples.

Results

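The mitochondrial ribosomal protein genes are the nuclear genes for the protein parts of the ribosome inside mitochondria. They were taken as the protein-coding genes of the count table whose symbol begins with Mrpl or Mrps followed by a digit. That gave 78 of the 54532 genes in the table, 49 named for the large subunit (Mrpl) and 29 for the small subunit (Mrps). The gene names, not any measured value, decided membership.

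Mitochondria keep their own ribosome, which translates the few proteins encoded in mitochondrial DNA, all of them core parts of the respiratory chain and the ATP synthase. Its ribosomal RNAs come from mitochondrial DNA, while every one of its proteins is made in the cytosol from nuclear genes and imported. Some of these proteins descend from bacterial ribosomal proteins and others were added in the mitochondrial lineage. Loss of function in several of them causes childhood disease in humans, often with brain involvement.

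Bulk RNA sequencing of brain tissue compared 4 libraries labelled Nsun5-KO with 4 libraries from WT littermates, all from male mice of 3 months of age, anaesthetised with pentobarbital. The protocol names 5 mice of each genotype, and 4 libraries of each were analysed here. Nsun5 encodes a methyltransferase that places 5-methylcytosine on the large RNA of the cytosolic ribosome, and the study asked how its loss affects the brain, myelin and sleep. No cell type or promoter restriction of the knockout is given in the sources used here.

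The label was checked first. Counts of Nsun5 were 102, 124, 83 and 110 in the libraries labelled Nsun5-KO, against 91, 82, 103 and 109 in WT, so the groups overlapped and the RNA was not lower under the knockout label (edgeR adjusted p = 0.817). Which part of Nsun5 was removed is not given in the sources used here, and reads outside a deleted part would not test the label. Libraries held 15642086 to 17829523 counts. WT replicates 1 and 2 stood apart on the first principal component, at -29.7 and -36.0, against 1.75 to 23.8 for the other 6 libraries. No gene of 16062 passed an adjusted p of 0.05 with edgeR, 1663 had an unadjusted p below 0.05, and DESeq2 called 93 of 14371.

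Marker RNAs of cell types and brain regions also differed between the groups. Reads of each marker list were summed and scaled by library totals to CPM, counts relative to a library of fixed size. Oligodendrocyte markers ran from 4476 to 6373 CPM across the libraries labelled Nsun5-KO and from 6989 to 7748 in WT, with 7 of 8 markers lower at an unadjusted p below 0.05. Neuron markers ran from 6247 to 6731 CPM across the libraries labelled Nsun5-KO and from 5611 to 5904 in WT. Of the 6, 3 were higher at that level. Snap25 and Syt1 had the most CPM in this list. Tubb3, Stmn2 and Map2 had log2 fold changes of 0.03, 0.03 and -0.03, libraries labelled Nsun5-KO over WT. At an unadjusted p below 0.05, 4 of 5 cortex markers were higher, and 5 of 5 ependyma and 4 of 6 hypothalamus markers were lower. Of all genes, 5.3% were higher and 5.05% lower at that level. None of the 6 astrocyte, 5 endothelium, 5 thalamus or 5 choroid plexus markers was, and 1 of 6 microglia and 1 of 5 blood markers were lower. Choroid plexus markers ran from 47.3 to 1153 CPM across the libraries labelled Nsun5-KO and from 308 to 1138 in WT. Of 4 cerebellum markers, Gabra6 and Pcp2 were too low to be tested. The other 2, Cbln1 and Cbln3, had log2 fold changes below 0, with a median of -0.52. Of these, 0 had an unadjusted p below 0.05. What part these markers have in the values below was not tested. In bulk tissue, fewer cells of a type and less RNA per cell cannot be told apart.

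Of the 78 genes, 77 were detected in every library and passed the low-count filter. Their levels per gene length spanned a wide range. Median FPKM, reads scaled per kilobase of gene and by library size, was 11.3 in the libraries labelled Nsun5-KO and 11.2 in WT. The large subunit genes had medians of 13.0 and 13.2 FPKM in the libraries labelled Nsun5-KO and in WT, and the small subunit genes 9.57 and 9.74 FPKM.

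At the top of the FPKM scale stood Mrpl41, a large subunit protein with no bacterial kin, at 43.2 ± 4.22 FPKM in the libraries labelled Nsun5-KO and 47.9 ± 0.643 in WT (SD, n = 4 each). Mrps21, kin of bacterial S21 on the platform of the small subunit, followed with 41.9 ± 4.66 FPKM in the libraries labelled Nsun5-KO and 40.7 ± 5.22 in WT. These neighbours in the order lay within their spread in the libraries labelled Nsun5-KO, and differed by more than either SD in WT. Mrpl34, kin of bacterial L34, averaged 36.0 ± 4.57 FPKM in the libraries labelled Nsun5-KO and 34.7 ± 6.33 in WT. Mrpl43 had 33.7 ± 1.40 FPKM in the libraries labelled Nsun5-KO and 32.7 ± 1.43 in WT. Mrpl27, kin of bacterial L27 near the peptidyl transferase centre, had 31.6 ± 2.95 FPKM in the libraries labelled Nsun5-KO and 31.6 ± 4.29 in WT. The order of Mrpl34, Mrpl43 and Mrpl27 lay within their spread.

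Among small subunit genes, Mrps12, kin of bacterial S12 at the decoding centre, had 29.3 ± 3.37 FPKM in the libraries labelled Nsun5-KO and 30.8 ± 3.61 in WT. Mrps33 and Mrps23 followed with 22.8 ± 2.94 and 21.9 ± 1.65 FPKM in the libraries labelled Nsun5-KO, and with 23.3 ± 1.14 and 21.7 ± 0.291 in WT. Mrpl33, kin of bacterial L33, had the lowest FPKM of the detected genes, on a deposited length of 7326 bases, at 1.70 ± 0.242 FPKM in the libraries labelled Nsun5-KO and 1.75 ± 0.188 in WT. The lowest small subunit genes, Mrps10, Mrps30 and Mrps35, lay between 2.41 and 2.48 FPKM in the libraries labelled Nsun5-KO and between 2.37 and 2.69 in WT.

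**Figure D1:**
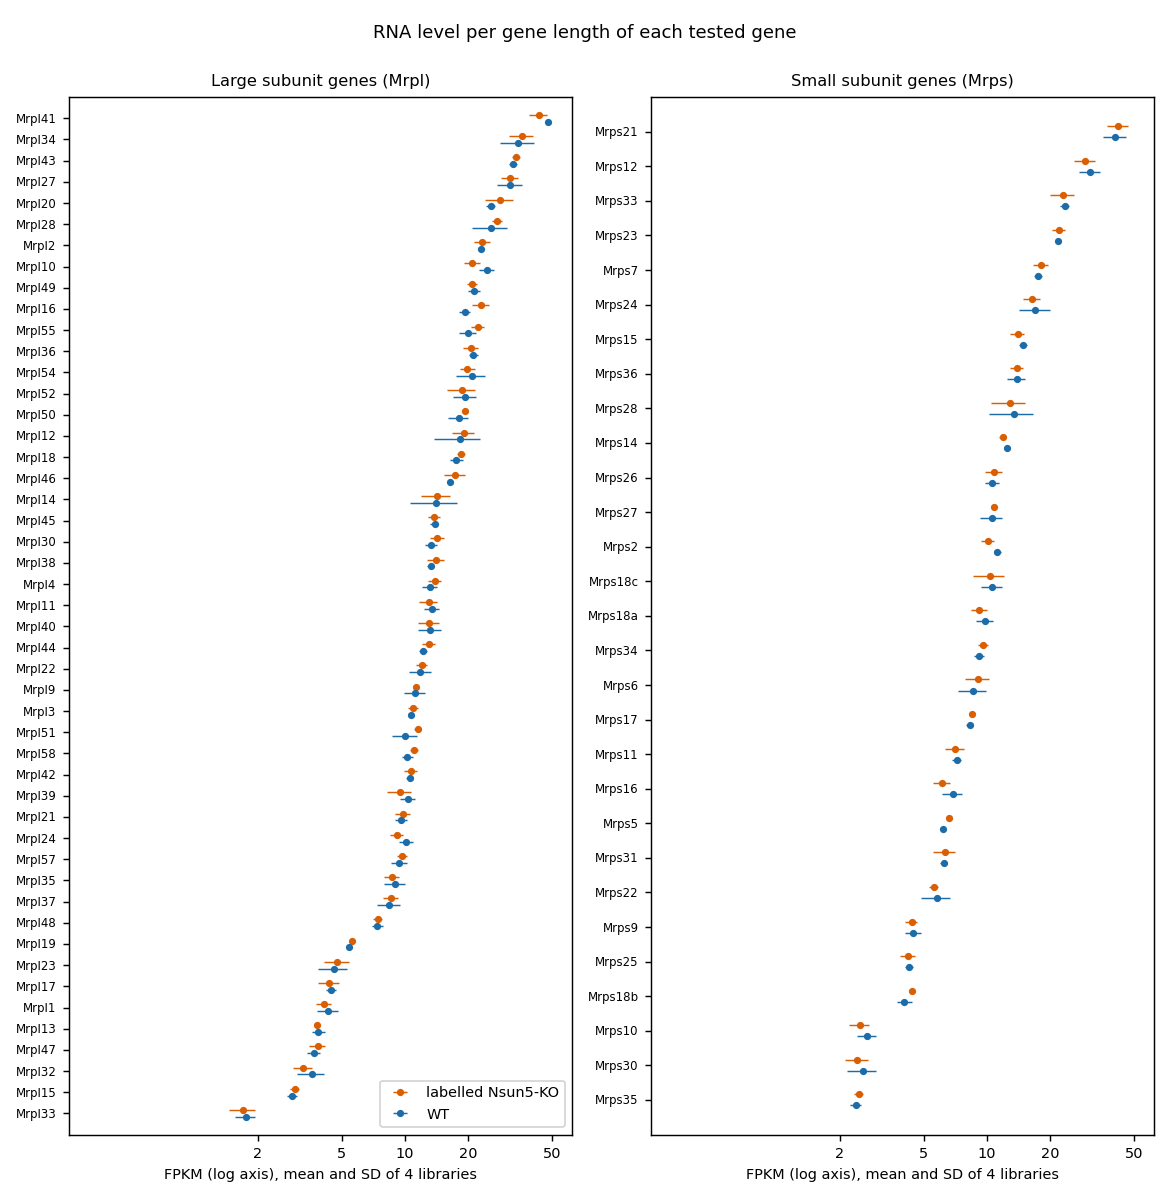
FPKM on a log axis for each of the 77 tested genes, large subunit left and small subunit right, with orange points for the libraries labelled Nsun5-KO above blue points for WT. Points are means and bars the SD of 4 libraries. Mrpl41 and Mrps21 top the subunits, and Mrpl33 is lowest of all at 1.70 and 1.75 FPKM.

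The FPKM order leans on the gene length used. From Mrpl33 to Mrpl41 FPKM spanned 25.5-fold in the libraries labelled Nsun5-KO and 27.4-fold in WT, and across the 77 genes it fell with the deposited length (Spearman rho of -0.826 and -0.830 in the same group order), which ran from 607 to 8631 bases. Reads per gene were closer together. CPM, from here on also scaled by the trimmed mean, spanned 7.94-fold in the libraries labelled Nsun5-KO and 8.43-fold in WT, from Mrps18b to Mrpl3. Dividing CPM by the length of the principal transcript instead put Mrps21 on top, at 63.9 per kilobase in the libraries labelled Nsun5-KO and 62.1 in WT, with spans of 13.96-fold and 13.36-fold. The bottom gene was then Mrpl17 in the libraries labelled Nsun5-KO, at 4.58 per kilobase, and Mrps25 in WT, at 4.65. Mrpl33, whose principal transcript has 478 bases, stood at 26.1 per kilobase in the libraries labelled Nsun5-KO and 27.1 in WT, above the medians of 19.1 and 18.6. The genes are not independent points, and gene length enters both measures.

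In the comparison by genotype label, mitochondrial ribosomal protein RNA stayed within narrow bounds. None of the 77 genes was called by edgeR's quasi-likelihood test (background 0% of all genes), and none by DESeq2 (background 0.647%). Only Mrpl10 and Mrpl16 had an unadjusted p below 0.05, 2 of 77 genes or 2.60%, against 10.4% of all 16062 genes and 9.47% of the 7035 protein-coding genes within the same CPM range. Mrpl10 was the 1 lower gene, with 5.05% of all genes lower at that level, and Mrpl16 the 1 higher gene, with 5.3% higher. DESeq2 also gave 2 members an unadjusted p below 0.05, against 6.53% of its genes. Fold changes on the log2 scale, libraries labelled Nsun5-KO over WT, lay between -0.23 and 0.25.

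Precision was enough to bound most of these genes. For 52 of 77, or 67.5%, the whole 95% interval of the fold change lay within 1.25-fold either way, against 35.9% of all genes and 48.8% of protein-coding genes at the same CPM. The median SD of log2 CPM within groups was 0.123 for these genes, 0.143 for protein-coding genes at the same CPM and 0.179 for all genes. Mrpl14 and Mrps28 had the largest standard errors, 0.180 and 0.182, so smaller changes in them were not detectable with 4 libraries a group.

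**Figure D2:**
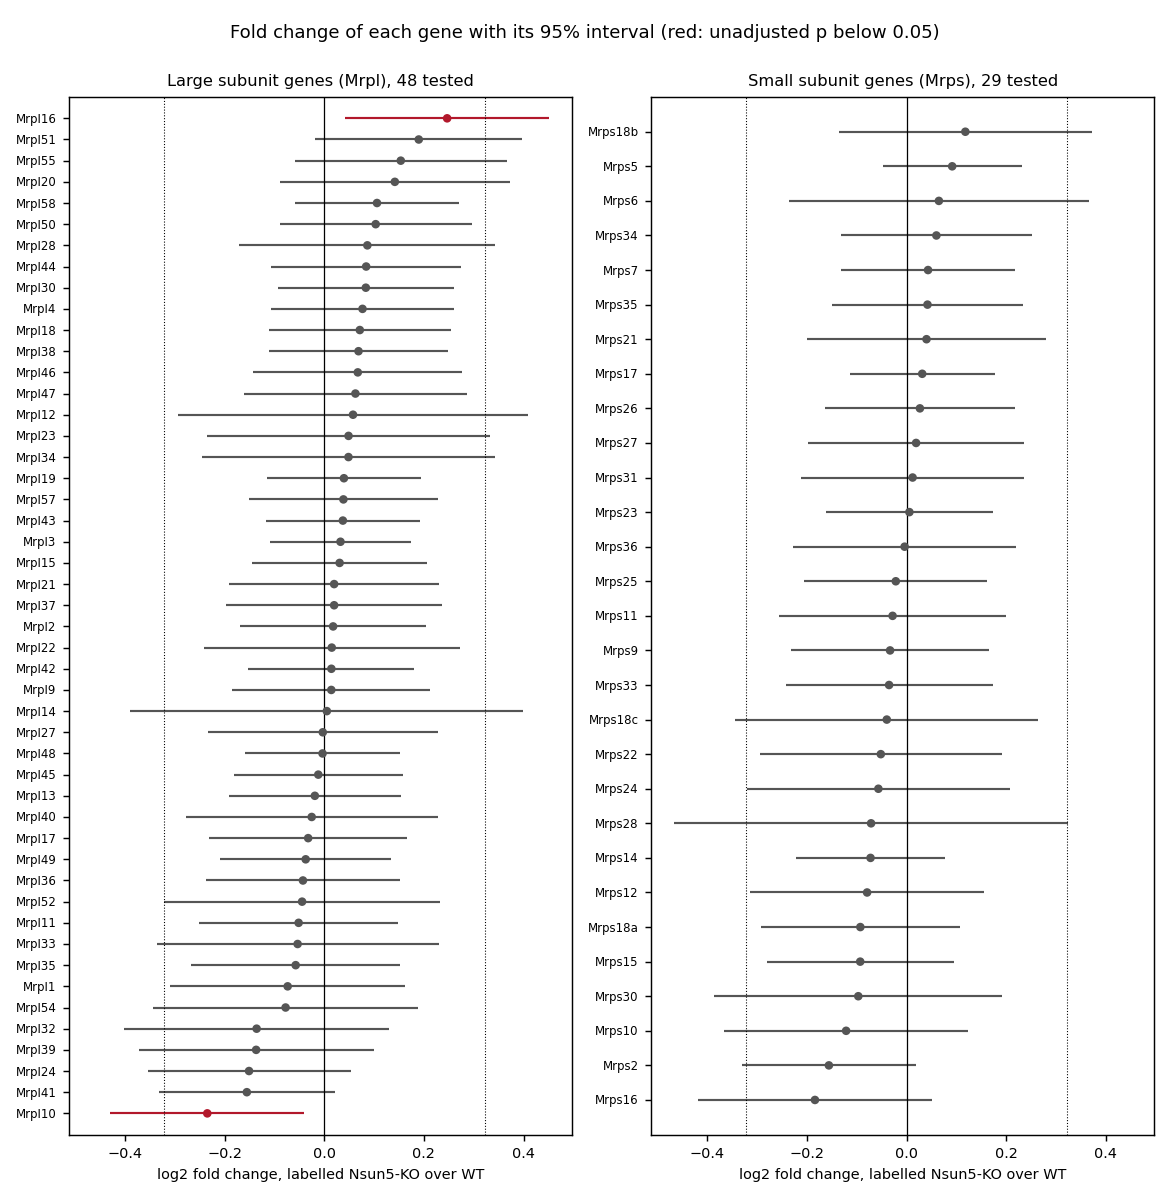
Log2 fold change of each tested gene, libraries labelled Nsun5-KO over WT, with its 95% interval from edgeR, large subunit left and small subunit right. Dotted lines mark 1.25-fold either way; the intervals of Mrpl16 and Mrpl10, in red, miss 0, and 52 of 77 intervals lie between the dotted lines.

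The subunits leaned slightly apart. Large subunit genes had a median log2 fold change of 0.02 with 29 of 48 above 0, and small subunit genes a median of -0.03 with 12 of 29 above 0. Across all genes the median was -0.01, and 48.6% lay above 0. Both medians were within the spread between replicates. For the next classes, genes were divided by place in the ribosome, not by name. Small subunit proteins classed as having bacterial kin had a median of -0.05 with 5 of 16 above 0. Those classed as mitochondria-specific had a median of 0.02 with 7 of 10 above 0. In the large subunit, bacterial kin had a median of 0.02 with 19 of 30 above 0. Mitochondria-specific proteins there had a median of 0.005 with 10 of 20 above 0. The classes follow the universal protein names alone. These names put Mrps18a and Mrps18b with the mitochondria-specific proteins, though both are relatives of Mrps18c, which is classed with the bacterial kin.

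Some of the genes were assigned to a region of the ribosome and the others to none, so these sets can be partial. The 3 stalk genes, whose proteins recruit translation factors, had a median log2 fold change of -0.05. The 4 genes assigned to the peptidyl transferase centre, where peptide bonds form, had a median of 0.03. The 5 assigned to the exit tunnel had a median of 0.01. On the small subunit only genes with bacterial kin were assigned. There 4 body genes had a median of -0.02 and 5 platform genes -0.03. The 5 assigned head genes had a median of -0.06, with 1 of 5 above 0.

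**Figure D3:**
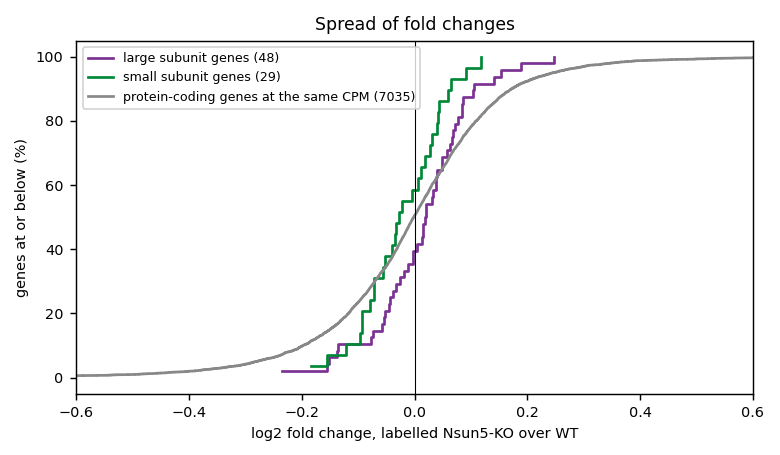
Cumulative share of genes at or below each log2 fold change, libraries labelled Nsun5-KO over WT, for large subunit genes (purple), small subunit genes (green) and 7035 protein-coding genes at the same CPM (grey); grey values beyond 0.6 either way are off the axis. The steps of both subunits are steeper than the grey line, and the green steps lie left of the purple ones over most of the range.

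Mrpl10 (ENSMUSG00000001445, chromosome 11, 97041560 to 97049213, plus strand) encodes the stalk base protein that carries Mrpl12. It had 31.6, 37.2, 39.2 and 35.9 CPM across the libraries labelled Nsun5-KO and 45.5, 44.5, 37.7 and 41.7 CPM in WT. All libraries labelled Nsun5-KO but replicate 3 were below every WT library. The means were 36.0 ± 3.19 CPM across the libraries labelled Nsun5-KO and 42.3 ± 3.51 CPM in WT (SD, n = 4 each), a log2 fold change of -0.23 ± 0.09 (SE), with an adjusted p of 0.412 by edgeR and an unadjusted p of 0.0222. An antisense transcript, Gm11574, overlaps Mrpl10 and had 0 to 1 counts in the libraries labelled Nsun5-KO and 0 to 2 in WT. The group means of the stalk partners of Mrpl10 lay closer together. Within groups Mrpl12 varied more, with an SD of log2 CPM of 0.274, against 0.127 for Mrpl10. Mrpl12 averaged 29.3 ± 3.60 CPM across the libraries labelled Nsun5-KO and 28.2 ± 6.83 in WT, and Mrpl11 37.6 ± 3.77 and 39.0 ± 3.12 CPM in the same order, with overlapping groups for both.

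Mrpl16 (ENSMUSG00000024683, chromosome 19, 11770415 to 11774944, plus strand) encodes the kin of bacterial L16, which lies beside the tRNA sites near the peptidyl transferase centre. It had 28.5, 22.8, 27.0 and 25.2 CPM across the libraries labelled Nsun5-KO and 22.2, 19.9, 22.9 and 22.3 CPM in WT. Replicate 2 alone of the libraries labelled Nsun5-KO fell inside the WT range. The means were 25.9 ± 2.48 CPM across the libraries labelled Nsun5-KO and 21.8 ± 1.34 CPM in WT (SD, n = 4 each), a log2 fold change of 0.25 ± 0.09 (SE), with an adjusted p of 0.412 by edgeR and an unadjusted p of 0.0224.

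In 2 of 77 genes, or 2.60%, the CPM ranges of the groups did not overlap, against 5.7% of all genes. That was 1 lower, Mrpl41, with 2.71% of all genes lower in this way, and 1 higher, Mrps5, with 2.99% higher. Mrpl41 (ENSMUSG00000036850, chromosome 2, 24974117 to 24975098, minus strand) had 42.2, 41.2, 34.0 and 36.9 CPM across the libraries labelled Nsun5-KO and 43.6, 42.3, 42.9 and 43.2 CPM in WT. The highest library labelled Nsun5-KO lay just under the lowest WT library, and the 4 WT libraries were close together. Its log2 fold change was -0.16 ± 0.08 (SE; edgeR adjusted p = 0.539). Mrps5 (ENSMUSG00000027374, chromosome 2, 127587222 to 127606829, plus strand), kin of bacterial S5 at the mRNA entry, had 43.4, 43.7, 43.6 and 44.2 CPM across the libraries labelled Nsun5-KO and 41.8, 40.1, 41.5 and 40.6 CPM in WT. The groups were apart but close, with a log2 fold change of 0.09 ± 0.06 (SE; edgeR adjusted p = 0.663).

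**Figure D4:**
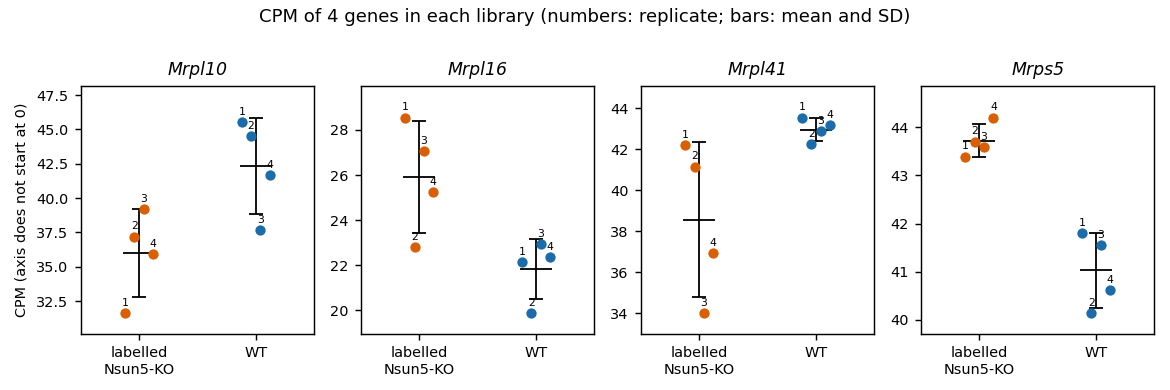
CPM of Mrpl10, Mrpl16, Mrpl41 and Mrps5 in each library, labelled Nsun5-KO left (orange) and WT right (blue), with replicate numbers and the mean and SD of 4 libraries; each vertical axis has its own range and does not start at 0. The groups overlap in Mrpl10 and Mrpl16 and are apart in Mrpl41 and Mrps5.

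The stretches before the starts of these 4 genes are shown because they are the genes in which the groups differed most or did not overlap. They are RefSeq sequence of GRCm38.p6 on the gene's own strand, 5′ to 3′, limited to bases outside annotated exons. Capitals mark a match to GCATGCGC, the site of the respiratory gene regulator NRF1, or CGGAAGT, an ETS family site, on either strand; AAGATGGC, the YY1 site, was also searched.
Mrpl10, chr11:97041408-97041559: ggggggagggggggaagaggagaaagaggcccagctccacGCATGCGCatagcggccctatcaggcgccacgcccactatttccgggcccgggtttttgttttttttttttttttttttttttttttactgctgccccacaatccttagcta
Mrpl16, chr19:11770165-11770390: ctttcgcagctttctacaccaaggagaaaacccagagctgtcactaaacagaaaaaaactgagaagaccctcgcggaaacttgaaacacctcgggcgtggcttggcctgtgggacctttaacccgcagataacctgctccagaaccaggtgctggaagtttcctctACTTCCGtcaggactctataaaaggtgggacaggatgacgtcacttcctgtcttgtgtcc
Mrpl41, chr2:24975099-24975348: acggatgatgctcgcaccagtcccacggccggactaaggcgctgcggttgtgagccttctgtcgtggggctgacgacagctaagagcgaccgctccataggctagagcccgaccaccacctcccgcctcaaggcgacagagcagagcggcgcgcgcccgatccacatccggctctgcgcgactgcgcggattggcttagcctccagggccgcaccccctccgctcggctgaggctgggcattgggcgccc
Mrps5, chr2:127587176-127587221: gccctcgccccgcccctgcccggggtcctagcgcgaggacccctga
Mrpl10 carried the NRF1 letters from 134 bases before the RefSeq start, and Mrpl16 the ETS letters, in reverse complement, from 84 bases before it. In the stretches of Mrpl41 and Mrps5, of 250 and 46 bases, none of the 3 motifs was found. The Mrps5 stretch is too short to say that its start region lacks them. Windows of 250 bases before to 50 after the start were available for 69 of the 78 genes, 75 windows in all. The NRF1 letters were in 10.7% of these windows and in 4.75% of 14188 windows of tested protein-coding genes. The ETS letters were in 22.7% and 11.4%, and the YY1 letters in 16% and 3.92%, in the same order. At least 1 of the 3 was in 42.7% of the windows of these genes, against 18.5% of windows of tested protein-coding genes. The YY1 and NRF1 regulators are known to drive nuclear genes of mitochondria; a match is a run of letters, not a bound site.

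Many of these genes share a start region with a neighbour. For 33 of 78, or 42.3%, the start of a protein-coding gene on the other strand lay within 1000 bases, against 14.7% of tested protein-coding genes. These counts took in pairs with a gap between the starts and pairs that overlap at their starts. The share was 49.0% for large and 31.0% for small subunit genes. Several partners also serve mitochondria. Mrpl46 overlaps Mrps11 itself at the start, and Mrpl36 overlaps Ndufs6 and Mrpl47 overlaps Ndufb5, both complex I subunits, in the same way. Mrps12 faces Sars2, the mitochondrial seryl-tRNA synthetase, and Mrpl43 faces Twnk, the mitochondrial DNA helicase. Mrpl10 faces Lrrc46 across a gap of 153 bases between the starts. Lrrc46 averaged 0.573 CPM across the libraries labelled Nsun5-KO and 1.05 in WT, far under Mrpl10 itself.

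Because the library kit does not mark strand, reads where genes overlap cannot be assigned with certainty. The spans of 35 of the 78 genes overlap a gene on the opposite strand and 13 a gene on the same strand. In 7, other genes share over 25% of the exon bases, among them Mrps34 with 77.8% and Mrps25 with 69.8%. Mrpl53 had 0 counts in all 8 libraries, which allows up to 0.168 to 0.192 CPM per library at a limit of 3 counts, counting error only. The whole span of Mrpl53 lies within Gm42688 on the same strand, which had 7 to 18 counts in the libraries labelled Nsun5-KO and 6 to 11 in WT. The table therefore gives no level for Mrpl53.

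The reads divided between the subunits in a nearly fixed ratio. Large subunit genes took 65.8%, 66.1%, 66.0% and 65.9% of the reads on all of these genes in the libraries labelled Nsun5-KO, and 65.2%, 65.1%, 65.5% and 65.7% in WT. Every library labelled Nsun5-KO lay above every WT library, with means of 66.0 ± 0.126% and 65.4 ± 0.285% (SD, n = 4 each) and a difference of 0.598 percentage points. Some 95% Wilson intervals of single libraries overlapped across the groups, such as 65.3% to 66.3% for replicate 1 labelled Nsun5-KO and 65.2% to 66.2% for WT replicate 4. Those of replicate 2 labelled Nsun5-KO, 65.6% to 66.6%, and WT replicate 2, 64.6% to 65.6%, just missed each other. These intervals cover counting error only. No test was made, since the genes were chosen with results of these data known.

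The separation depended on how the genes were divided. When Mrps30 and Mrps18a, small subunit genes by name whose proteins sit in the large subunit, were moved there and Mrps36 was left out, the groups overlapped, at 68.8 ± 0.252% in the libraries labelled Nsun5-KO and 68.3 ± 0.273% in WT, a difference of 0.441 percentage points. Among the mitochondria-specific genes alone the large share was 71.5% in the libraries labelled Nsun5-KO and 71.4% in WT. Among those with bacterial kin it was 66.8% in the libraries labelled Nsun5-KO and 66.1% in WT, a difference of 0.722 percentage points. The groups overlapped in both classes. The groups stayed apart by name without members that overlap an opposite-strand gene, and without Mrpl10, Mrpl16, Mrpl41 and Mrps5. Without WT replicates 1 and 2 the difference by name was 0.366 percentage points. Leaving libraries out cannot make separate groups overlap, so it does not test the separation.

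**Figure D5:**
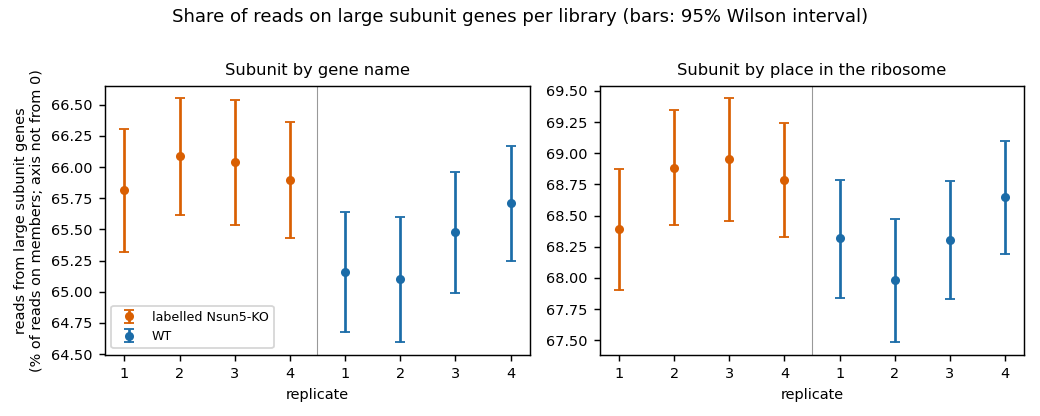
Percentage of reads on mitochondrial ribosomal protein genes that fell on large subunit genes, per library, labelled Nsun5-KO left (orange) and WT right (blue), with 95% Wilson intervals; axes do not start at 0. By gene name the groups are apart, and by place in the ribosome they overlap.

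Summed levels were close. All of the genes together took 2235 ± 73.2 CPM across the libraries labelled Nsun5-KO and 2229 ± 49.6 CPM in WT (SD, n = 4 each). Large subunit genes summed to 1474 ± 48.0 CPM across the libraries labelled Nsun5-KO and 1457 ± 38.4 in WT. Small subunit genes summed to 760.7 ± 25.5 CPM across the libraries labelled Nsun5-KO and 771.8 ± 11.5 in WT. Each of these differences was smaller than the SD within the libraries labelled Nsun5-KO.

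The genes whose names mislead about place did not stand out. Mrps18a, a large subunit protein, had 34.0 ± 2.95 CPM across the libraries labelled Nsun5-KO and 36.3 ± 3.26 in WT. Its relatives in the small subunit, Mrps18b and Mrps18c, had 9.26 ± 0.346 and 11.1 ± 1.87 CPM across the libraries labelled Nsun5-KO, and 8.53 ± 0.697 and 11.5 ± 1.29 in WT. Mrps30, also a large subunit protein, had 16.2 ± 1.99 CPM across the libraries labelled Nsun5-KO and 17.3 ± 2.74 in WT. Mrps36, known as a part of the 2-oxoglutarate dehydrogenase complex of the citric acid cycle, had 17.7 ± 1.30 CPM across the libraries labelled Nsun5-KO and 17.8 ± 1.76 in WT. The groups overlapped in all 5.

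Genes listed for mitochondrial translation, mitochondrial DNA transcription and upkeep, and control of mitochondrial biogenesis also held few low p-values. Of 83 tested genes in 6 lists, 3 had an unadjusted edgeR p below 0.05, or 3.61%, against 10.4% of all genes, and 0 were called, as was 0% of all genes. The other mitoribosome proteins had 0 of 5, with Dap3 at 0.07 and Gadd45gip1 at 0.08 (log2 fold changes). The assembly and RNA modification list had 1 of 27, Mterf4, which recruits an RNA methyltransferase to the large subunit. Mterf4 had 13.9, 12.9, 12.06 and 12.03 CPM across the libraries labelled Nsun5-KO and 10.1, 10.9, 8.89 and 10.6 CPM in WT, so the groups did not overlap (log2 fold change 0.33; edgeR adjusted p = 0.392). Rpusd4, a pseudouridine synthase, stood at 0.29 with overlapping groups.

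Translation factors had 0 of 14, with the initiation factor Mtif2 at -0.15 and the elongation factor Tufm at 0.14. Among 19 mitochondrial tRNA synthetases, Fars2, which charges the phenylalanine tRNA, alone had an unadjusted p below 0.05. Fars2 had 14.5, 11.3, 11.6 and 12.4 CPM across the libraries labelled Nsun5-KO and 15.2, 17.6, 15.5 and 17.4 CPM in WT, with the groups apart (log2 fold change -0.40; edgeR adjusted p = 0.316). Lars2, the leucyl-tRNA synthetase, had 64.1, 57.4, 263 and 48.1 CPM across the libraries labelled Nsun5-KO and 49.1, 61.9, 50.7 and 44.5 CPM in WT. Replicate 3 alone stood high. Its log2 fold change of 1.07 (edgeR adjusted p = 0.603) was 0.14 without that library.

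Genes of mitochondrial DNA transcription and upkeep had 0 of 10, with Mterf1b at -0.70 on under 1.3 CPM and Polg, the DNA polymerase, at 0.12. Among 8 controllers of mitochondrial biogenesis, the coactivator Ppargc1b had 10.7, 11.3, 12.5 and 11.6 CPM across the libraries labelled Nsun5-KO and 7.50, 8.46, 10.1 and 9.08 CPM in WT. The groups were apart (log2 fold change 0.39; edgeR adjusted p = 0.361). Yy1 stood at 0.09.

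The messenger RNAs that this ribosome translates were measured as well. All 13 protein-coding genes of mitochondrial DNA had log2 fold changes below 0, with a median of -0.20. These genes are not independent points, since each library has a single mitochondrial share of reads. That share was 7.27% and 7.68% in WT replicates 1 and 2, and 5.52% to 6.23% in the other libraries. Of the 13, 4 had an unadjusted edgeR p below 0.05, with 10.4% of all genes at that level, and 0 an adjusted one. That count was 1 without replicate 2 or without replicate 3 labelled Nsun5-KO, 2 without replicate 4 and 5 without replicate 1 of that group. It was 4 without WT replicate 1, 2 without WT replicate 2 or 3, and 6 without WT replicate 4. These counts took either direction, with 6.99% to 11.8% of all genes at that level. Their summed CPM by library totals ran from 47124 to 54763 CPM across the libraries labelled Nsun5-KO and from 51283 to 66589 in WT. WT replicates 1 and 2 were the highest. Without them the median log2 fold change was -0.04. In that setting 4 of the 13 had an unadjusted edgeR p below 0.05, counted in either direction, against 7.18% of all genes. The ribosomal RNA genes mt-Rnr1 and mt-Rnr2 ran together, also by library totals, from 7355 to 9178 CPM across the libraries labelled Nsun5-KO and from 7248 to 9997 in WT, so these groups overlapped.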

How the data were processed

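TRIzol RNA went into NEBNext Ultra libraries, per the labels, a kit without strand information. HISAT2 2.0.5 and mm10 are named as aligner and build, per the submitters' processing notes. Which program counted reads is not given in the sources used here. Raw read counts per gene were deposited, 15642086 to 17829523 per library. Deposited FPKM matched these counts over gene length, up to 1 constant per library; a deposited mean FPKM per group was checked and not used further.

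The count test was that of edgeR 4.0.16, run in R 4.3.3: filterByExpr, trimmed-mean scaling, robust quasi-likelihood test without covariates, Benjamini-Hochberg adjustment over 16062 genes, called at an adjusted p below 0.05. The fit was tested on simulated data. Alternatives were DESeq2 1.42.0, limma 3.58.1 (voom, log2 FPKM), other scalings and filters, the replicate number as a block, and libraries left out. Nothing says the libraries of a group come from separate cages or days; p-values measure the spread between them.

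Members and lists were chosen with earlier results of these data known. Members were named by unadjusted p below 0.05, separate groups, highest or lowest FPKM, misleading names, the stalk or removal by the filter; pathway genes were the 2 of smallest p per list. Motifs, ribosome regions, the large-share comparison, the median of mitochondrially encoded genes and the transcript lengths (GENCODE M21) were chosen after seeing data, as were Lrrc46, Gm11574, Gm42688, Mrpl14, Mrps28, Mrps25 and Mrps34. Overlaps, starts and exons are from GENCODE M21 and the deposited coordinates.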

Additional observations from a re-analysis of the deposited data

Results flagged for a closer look

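Within single groups of 4, a library stood apart from the other 3 in 5 of the 80 groups checked; chance alone gives about 1 in 20. Mrpl32 had 22.12 CPM in WT replicate 2, against 16.21 to 17.19 in the other WT libraries. Mrps18c had 13.94 CPM in replicate 2 labelled Nsun5-KO, against 9.935 to 10.51 in the others of its group. Mrps36 had 19.66 CPM in the same library, against 16.96 to 17.16. Lars2 had 262.9 CPM in replicate 3 labelled Nsun5-KO, against 48.06 to 64.14, and the mitochondrial ribosomal RNA mt-Rnr1 had 3863 CPM in that library, against 3204 to 3260. What sets these libraries apart was not tested.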

How the results depend on the processing

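No member was called under any alternative. The count of members with an unadjusted p below 0.05, 2 in the reported test, was 1 with the replicate number as a block, against 7.90% of all genes. It was 1 without replicates 1 and 3 labelled Nsun5-KO, against 5.64%, and 1 of 43 among members with no opposite-strand overlap, against 10.4%. Library totals and upper quartile factors gave 3, adding Mrps2, against 9.77% and 9.83%. No low-count filter gave 3, adding Mrpl51, against 7.98%. With each library left out it was 1 to 3, against 6.99% to 11.8% of all genes. Mrpl16 stayed under the block and Mrpl10 did not. Mrpl10 was past that level neither without replicate 1 labelled Nsun5-KO nor without WT replicate 1 or 2, and Mrpl16 neither without replicate 1 or 3 labelled Nsun5-KO nor without WT replicate 2. The only member was Mrpl20 without replicates 1 and 3 labelled Nsun5-KO, Mrpl41 without replicate 1 of that group, and Mrps16 without WT replicate 2. Without WT replicates 1 and 2 the members were Mrps16 and Mrps24, and neither Mrpl10 nor Mrpl16 remained. Replicate numbers do not pair the libraries: deviations of same-numbered libraries correlated at -0.115, -0.213, -0.0411 and 0.0631. The median log2 fold change ranged from -0.01 to 0.05 for large and from -0.05 to 0.0039 for small subunit genes, each value within 1 SD between replicates of the reported median. The gap in large share, 0.598 percentage points, was 1.0 without members that overlap an opposite-strand gene, 0.838 without Mrpl10, Mrpl16, Mrpl41 and Mrps5, 0.0277 for mitochondria-specific members alone, 0.722 for those with bacterial kin alone, 0.366 without WT replicates 1 and 2, and 0.511 to 0.714 with each library left out. The median of mitochondrially encoded genes ranged from -0.29 to -0.04. Library totals moved the median of all genes to -0.03.

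Of 734 fold changes of 35 named genes under alternatives, 686 kept their direction and 48, in 14 genes, did not; Mrpl10, Mrpl16, Mrpl41 and Mrps5 kept theirs. The cause was not tested. Without WT replicates 1 and 2 the log2 fold change was -0.20 for Mrpl12, -0.16 for Mrpl34, -0.083 for Mrps21, 0.11 for Mrps30, -0.18 for Gadd45gip1 and -0.0064 for Polg. Without replicates 1 and 3 labelled Nsun5-KO it was 0.011 for Mrpl11, 0.11 for Mrpl27, 0.0036 for Mrps18a, 0.074 for Mrps18c, -0.074 for Mrps23, 0.085 for Mrps33 and 0.042 for Mrps36. Mrpl27 was at 0.0011 with DESeq2, 0.0058 and 0.0056 on log2 FPKM with pseudocounts of 0.1 and 1, 0.00092 with no low-count filter and 0.00054 under the replicate block. Mrps36 was at 0.00034, 0.0034, 0.0030 and 0.00047 in the first 4 of these. Mrps23 was at -0.020 with library totals and -0.018 with upper quartile factors. With each library left out, values ran from -0.11 to 0.0078 for Mrpl11, -0.042 to 0.21 for Mrpl12, -0.051 to 0.092 for Mrpl27, -0.12 to 0.027 for Mrpl33, -0.043 to 0.13 for Mrpl34, -0.17 to 0.028 for Mrps18c, -0.047 to 0.098 for Mrps21, -0.031 to 0.052 for Mrps23, -0.11 to 0.042 for Mrps33, -0.062 to 0.039 for Mrps36 and -0.030 to 0.18 for Gadd45gip1.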
